A study of Mus musculus with 6 samples.

Results

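Phase II conjugation enzymes attach a large polar group to a drug, toxin, hormone or bile constituent, so that the product can leave the cell. Their genes were taken by symbol from the deposited count table: the UDP-glucuronosyltransferases (Ugt1a and Ugt2), the cytosolic sulfotransferases (Sult), the cytosolic glutathione S-transferases (Gsta, Gstm, Gstp, Gstt, Gsto and Gstz), the kappa-class transferase Gstk1 and the microsomal glutathione S-transferases (Mgst). The selection holds 46 of the 19616 genes in the table. RNA was sequenced from jejunal intestinal epithelial cells (IEC) freed with EDTA, from 3 wild-type mice, called control, and 3 villin-Cre Hdac1-/-; Hdac2-/- mice, called Hdac1/2-deleted, all 3 months old. Floxed alleles of both genes were removed by Cre under the villin promoter, which is active in the intestinal epithelium from before birth, and the colony was on a mixed C57BL/6J, 129SV and CD1 background. HDAC1 and HDAC2 are class I deacetylases that take acetyl groups from histones and other proteins. The comparison asks which conjugation genes had another RNA level in Hdac1/2-deleted than in control IEC.

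UGT enzymes transfer glucuronic acid from UDP-glucuronate in the endoplasmic reticulum, SULT enzymes transfer sulfate from PAPS in the cytosol, and GST enzymes couple electrophiles to glutathione. The small intestine meets food compounds and oral drugs before the liver does, and enterocytes carry members of all of these families as part of first-pass metabolism. The conjugates are then pumped out by ABC transporters toward the gut lumen or the blood.

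Each mouse gave 1 library, and between 36111035 and 65902344 reads were counted on genes. Levels are in CPM, counts per 1000000 after scaling by library total and TMM factor, and 3 counts correspond to 0.0405 to 0.079 CPM, a floor that covers counting error only. Hdac1 stood at 39.1, 34.5 and 48.9 CPM in control mice C1, C3 and C3-3 and at 3.97, 2.53 and 4.81 CPM in Hdac1/2-deleted mice H1, H5 and H9, with no overlap. Hdac2 RNA overlapped between the groups, at 32.9, 23.6 and 26.5 CPM against 26.6, 25.4 and 21.4 CPM, so the count per gene does not show its deletion. Control mouse C3 was the only one with transcripts of the Y chromosome (Eif2s3y at 26.6 CPM) and had 0.234 CPM of Xist, against 63.5 to 122 CPM in the other 5, so results are also given without it. Of 12 enterocyte markers 5 fell and 1 rose, beside 12.7% and 12.4% of all genes tested. These markers summed to 89737 to 104481 CPM in control and 37557 to 50965 CPM in Hdac1/2-deleted IEC. Much of that difference was in Apoa4 (mean 38393 against 6283 CPM) and Apoa1 (22706 against 13216 CPM), while Sis, Fabp1 and Slc5a1 were not called. Fewer cells of a type and less RNA per cell cannot be told apart in such bulk samples. Markers of T cells summed to 146 CPM in C1, 572 in C3 and 481 in C3-3 against 75.0 to 177 in the deleted mice, and those of fibroblasts and muscle to 63.0, 44.3 and 4.80 CPM against 2.63 to 7.36. Their part in the results below was not tested.

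Conjugation genes moved more often down than up. Of the 42 members with enough counts to test, 14 fell and 5 rose, where a change means an adjusted p of at most 0.05 in edgeR's quasi-likelihood test and a difference of at least 2-fold. These are 33.3% and 11.9% of the members tested, beside 12.7% and 12.4% of all 15618 genes tested that fell and rose. Together 19 members changed, where 25.2% of all genes did, and 23 were not called. The levels of the groups did not overlap for 25 of the 42 members, or 59.5%, against 53.2% of all genes. The median log2 fold change of the members was -0.51, that of all genes -0.0081. Without C3 the members' median was -0.17, with 12 lower and 3 higher, and 15 of the calls were the same. The background without C3 was 11.4% of genes lower and 11.8% higher. The 4 members left untested were Ugt1a2, Ugt1a5, Ugt1a10 and Sult4a1, each at most 0.316 CPM in every mouse.

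**Figure D1:**
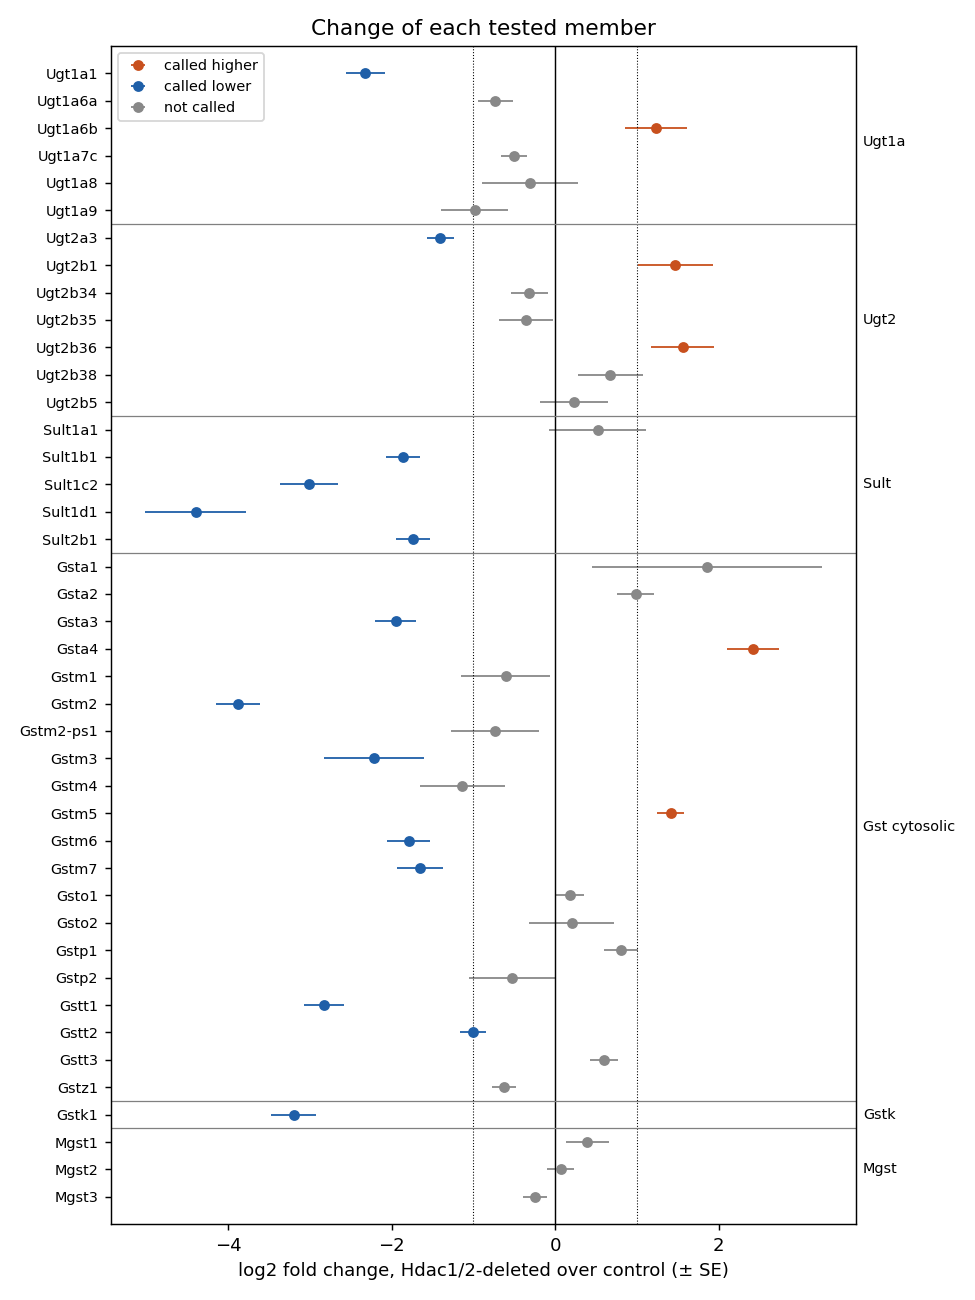
Log2 fold change of each of the 42 tested members, Hdac1/2-deleted over control, on the horizontal axis, with bars of 1 standard error and members grouped by class. Members that rose are orange, those that fell blue and those not called grey, and the dotted lines mark a 2-fold difference. The values run from -4.40 for Sult1d1 to 2.42 for Gsta4.

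Most sulfotransferases fell. Of 5 tested members, Sult1b1, Sult1c2, Sult1d1 and Sult2b1 fell and none rose, with a median log2 fold change of -1.86. The summed level of the class was 1006, 813 and 1076 CPM in control mice and 206, 162 and 248 CPM in Hdac1/2-deleted mice, so the mean of the deleted group was 0.213 of the control mean. All 3 deleted mice lay below all 3 control mice.

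Sult1d1, a sulfotransferase of catecholamines and phenols, lies on chromosome 5 from 87554645 to 87569027 (GRCm38, minus strand). It stood at 381, 159 and 343 CPM in C1, C3 and C3-3 and at 21.5, 5.34 and 14.9 CPM in H1, H5 and H9. Every deleted mouse was far below the lowest control, C3, and H5 was the lowest of all. Its log2 fold change was -4.40 (standard error 0.62, edgeR adjusted p = 0.0022), the largest decrease among the members. Its neighbour Sult1b1, which sulfates thyroid hormones and small phenols, had the most even control values of the class, at 405, 402 and 413 CPM. It fell to 122, 77.4 and 136 CPM, with again the lowest level in H5 (log2 fold change -1.86, edgeR adjusted p = 0.000213).

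Sult2b1 conjugates cholesterol and other hydroxysteroids. It stood at 217, 249.2 and 317 CPM in control and 60.7, 78.6 and 95.2 CPM in Hdac1/2-deleted IEC (log2 fold change -1.74, edgeR adjusted p = 0.000292). Sult1c2 was the rare member of those that fell, at 1.75 to 2.54 CPM in control and 0.243 to 0.342 CPM in deleted mice, with a log2 fold change of -3.01. The phenol sulfotransferase Sult1a1, abundant in liver, stayed between 0.162 and 1.15 CPM in all 6 mice and was not called. Sult1d1 made up 29.8% of the summed class in control and 6.58% in Hdac1/2-deleted IEC, as means over the mice. The shares of Sult1b1 and Sult2b1 were 42.7% and 27.2% in control against 54.0% and 38.8% in deleted mice.

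**Figure D2:**
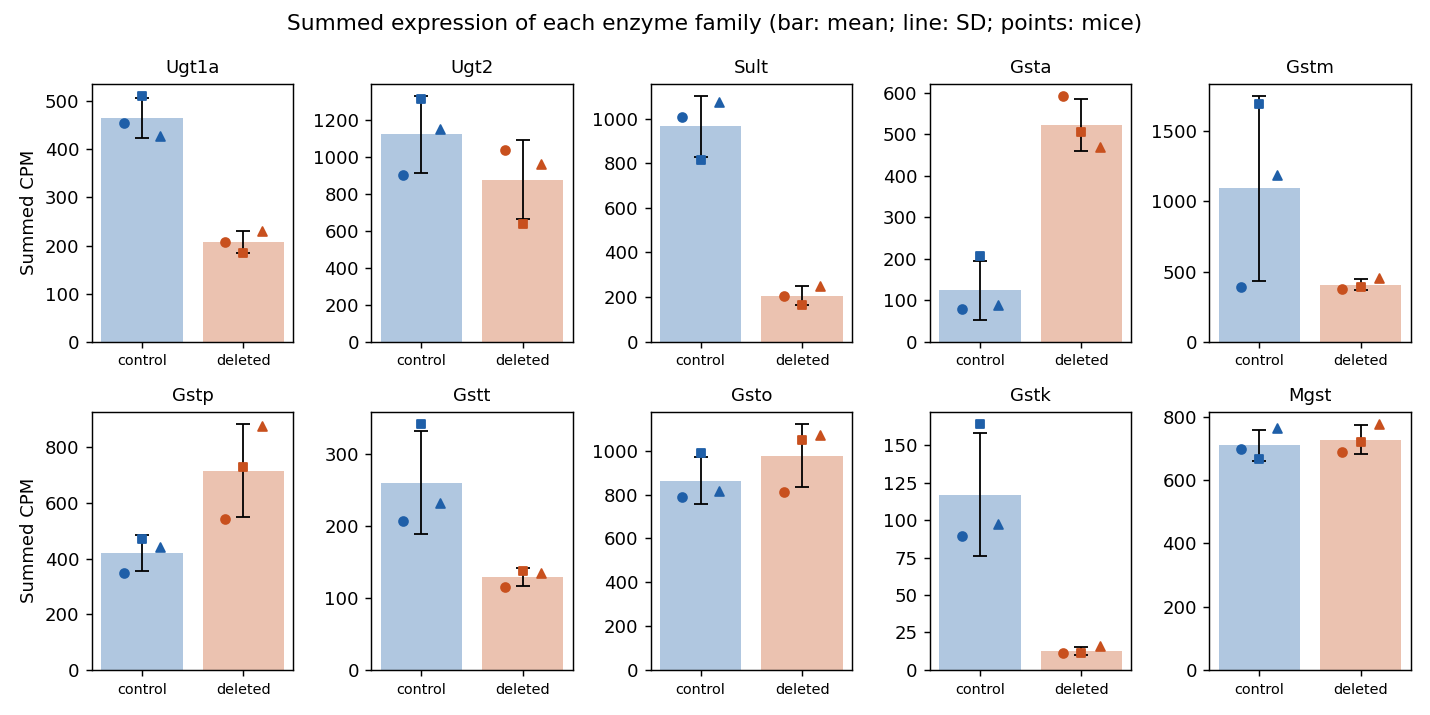
Summed level of 10 enzyme families in CPM, on axes that start at 0, with the mean as a bar, the SD as a line and 1 point per mouse (control blue, Hdac1/2-deleted orange, with C1 and H1 as circles, C3 and H5 as squares, C3-3 and H9 as triangles). Sult and Gstk lie lower in all deleted mice, Gsta lies higher, and Mgst overlaps.

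UGT genes of the first family share 1 locus. The 9 Ugt1a members lie on chromosome 1 between 88055388 and 88220002, each with a first exon of its own joined to common last exons, and 50.3% to 60.6% of the exonic bases of a member are annotated to other members too. Ugt1a2, Ugt1a5 and Ugt1a10 had at most 8 counts in any mouse, so reads on the common exons were not credited to every member. How such reads were assigned is not given in the sources used here, and the levels of the isoforms are uncertain for that reason. The summed locus stood at 456, 511 and 428 CPM in control and 207, 185 and 231 CPM in Hdac1/2-deleted mice, a ratio of means of 0.447.

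Most of that difference was Ugt1a1, the bilirubin-conjugating enzyme. It stood at 226, 220 and 237 CPM in the control mice and at 34.6, 38.0 and 64.2 CPM in H1, H5 and H9. The groups were well separated and H9 was the highest of the deleted mice. The log2 fold change was -2.32 (standard error 0.24, edgeR adjusted p = 0.000124). Ugt1a7c, the other abundant isoform, was at 202, 225 and 158 CPM in control and 149, 126 and 137 CPM in deleted mice. It passed the adjusted p but not the 2-fold limit (log2 fold change -0.50, edgeR adjusted p = 0.034). Without C3 it passed neither (log2 fold change -0.38, edgeR adjusted p = 0.108).

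The phenol-conjugating pair Ugt1a6a and Ugt1a6b differed in direction. Ugt1a6a had a log2 fold change of -0.73, under the 2-fold limit. Ugt1a6b rose from 0.785, 1.53 and 1.17 CPM to 3.46, 1.74 and 2.97 CPM (log2 fold change 1.24, edgeR adjusted p = 0.0275), and its lowest deleted mouse, H5, lay just above its highest control, C3. That call was lost without C1, C3-3, H1 or H9, with edgeR adjusted p-values of 0.0665, 0.0695, 0.0987 and 0.0737. The members are near copies of each other, so reads may be split between them. Ugt1a9, with 51.7 CPM in C3 but 18.3 and 20.9 CPM in C1 and C3-3, was not called with all mice (log2 fold change -0.98, edgeR adjusted p = 0.0981) and passed as lower only when C1 was left out (-1.24, 0.0394). Ugt1a8 stayed at or below 0.282 CPM in every mouse and was not called.

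The second UGT family conjugates steroids, bile acids and fatty acids. All 7 members were tested, 2 rose, 1 fell and 4 were not called, and the class sum overlapped between the groups (901, 1315 and 1153 against 1036, 636 and 961 CPM). The dominant member Ugt2b34 stood at 588, 915 and 748 CPM in control and 715, 449 and 645 CPM in deleted mice and was not called. It made up 66.6% of the class in control and 68.9% in Hdac1/2-deleted IEC. Ugt2a3 fell from 224, 225 and 216 CPM to 77.0, 72.6 and 102 CPM, with little spread among the control mice (log2 fold change -1.40, edgeR adjusted p = 0.000225).

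Ugt2b36 moved the other way. It stood at 14.9, 16.4 and 31.0 CPM in control and at 79.7, 35.7 and 68.2 CPM in deleted mice, so that C3-3 came close to H5 without overlap. The log2 fold change was 1.56 (standard error 0.38, edgeR adjusted p = 0.0153), and without C3 it was 1.42 with an adjusted p of 0.0572. Ugt2b1 also rose, but at a level near the floor, from 0.0900 to 0.188 CPM in control to 0.316 to 0.455 CPM in deleted mice. Its edgeR adjusted p of 0.0305 became 0.112 without C3 and 0.0678 in DESeq2. It was above 0.05 also without C1, H1 or H9, at 0.0702, 0.0901 and 0.0999. The others, Ugt2b5, Ugt2b35 and Ugt2b38, were not called, with log2 fold changes of 0.24, -0.35 and 0.68.

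**Figure D3:**
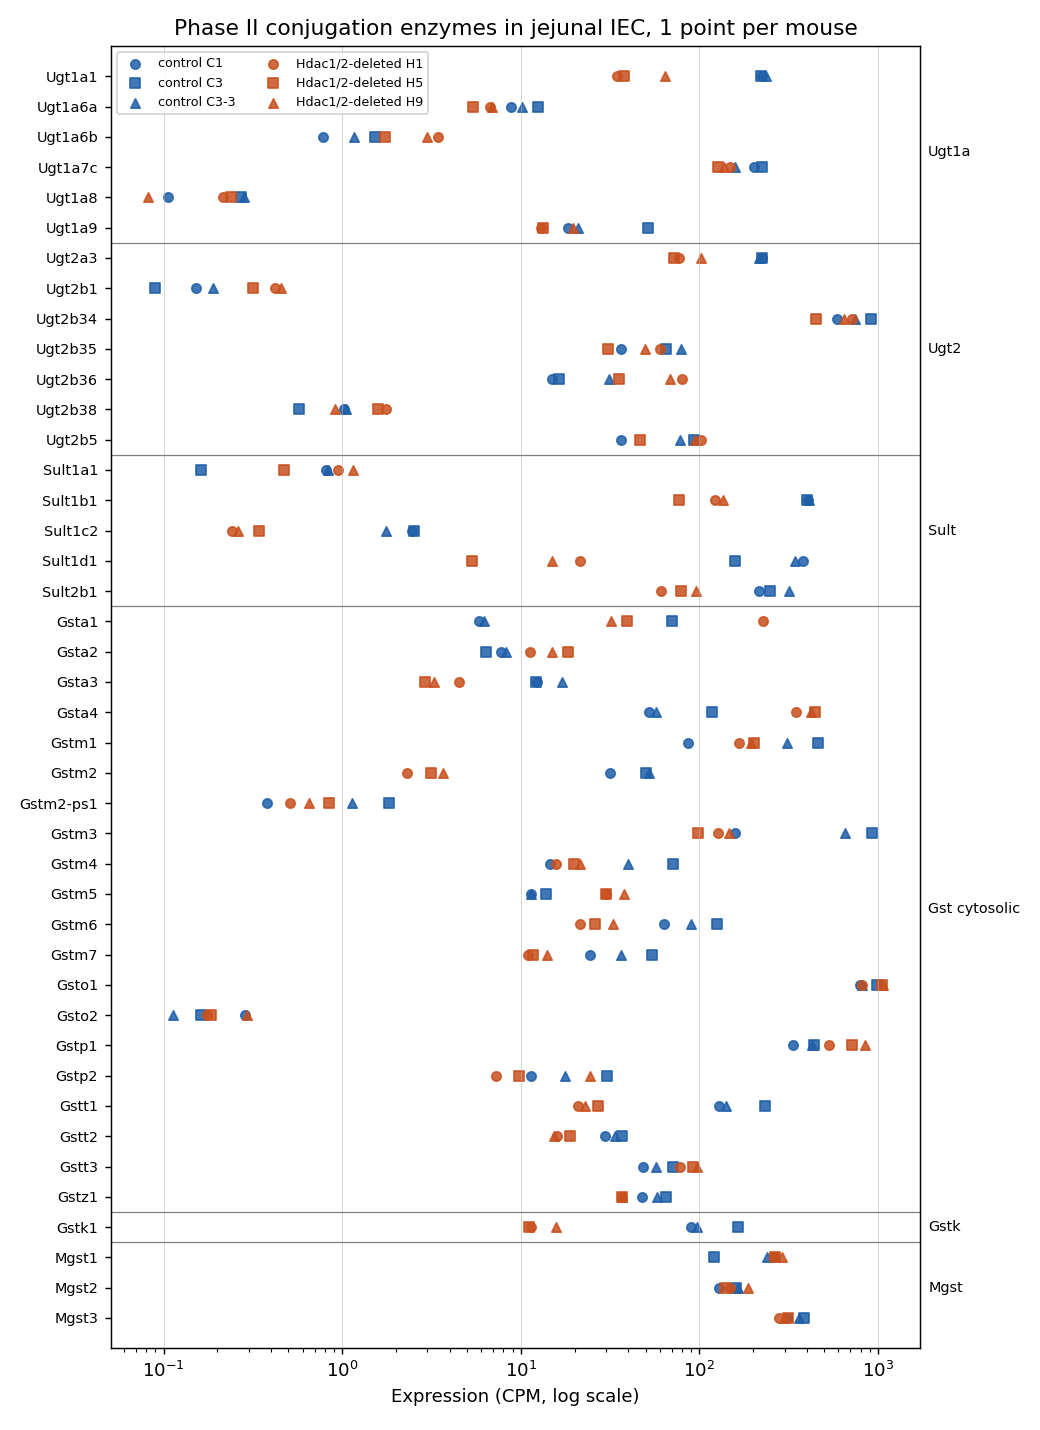
Level of each of the 42 tested members in each mouse, in CPM on a log axis, grouped by class, with control mice in blue and Hdac1/2-deleted mice in orange (C1 and H1 circles, C3 and H5 squares, C3-3 and H9 triangles). Sult1d1, Gstm2, Gstt1, Gstk1 and Ugt1a1 show separate groups with the deleted mice lower, and Gsta4 shows the deleted mice higher.

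The summed level of the cytosolic glutathione S-transferases overlapped between the groups, while the makeup of the class differed. Of 20 members, 7 fell, 2 rose and 11 were not called. The class sum was 1858, 3768 and 2828 CPM in control and 2474, 2849 and 3041 CPM in deleted mice, which overlapped at a ratio of means of 0.989. Within it the alpha family summed to 78.0, 206 and 88.7 CPM in control and 593, 507 and 469 CPM in deleted mice, a ratio of 4.21, and the mu family to 390, 1697 and 1192 against 376, 391 and 452 CPM, a ratio of 0.372. The mu sum of control mouse C1 lay within the range of the deleted mice.

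Alpha-class enzymes reduce lipid peroxides and conjugate their breakdown products. Gsta4, the form that handles 4-hydroxynonenal, lies on chromosome 9 from 78182774 to 78209349 and stood at 52.2, 117 and 57.2 CPM in C1, C3 and C3-3. In H1, H5 and H9 it was at 349, 446 and 419 CPM, all well above C3. The log2 fold change of 2.42 (standard error 0.32, edgeR adjusted p = 0.000608) was the largest increase among called members, and without C3 it was 2.89.

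No other alpha gene was called higher, though Gsta1 and Gsta2 also had positive log2 fold changes. Gsta3 fell from 12.3, 12.1 and 17.0 CPM to 4.49, 2.90 and 3.27 CPM (log2 fold change -1.95). Gsta2 was at 6.41 to 8.30 CPM in control and 11.3 to 18.4 CPM in deleted mice, just under the 2-fold limit at a log2 fold change of 0.99 (edgeR adjusted p = 0.00732), and it passed in 7 of 14 other analyses. Gsta1 varied widely within both groups. It stood at 5.80, 70.7 and 6.19 CPM in control and 228, 39.3 and 31.8 CPM in deleted mice. C3 overlapped the deleted group, and the log2 fold change of 1.86 had a standard error of 1.40 (edgeR adjusted p = 0.349). Without C3 it was 4.06 with an adjusted p of 0.0857, and Gsta1 and Gsta2 are near copies whose reads may be shared.

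The mu class, which conjugates epoxides and aromatic electrophiles, lies as 7 genes on chromosome 3 between 107895821 and 108044894, with the pseudogene Gstm2-ps1 on chromosome 5. Gstm2, Gstm3, Gstm6 and Gstm7 fell, and Gstm5 rose. Gstm5 sits at the end of the cluster and is the only one there on the plus strand. The 5 mu genes that changed lie beside each other in the order Gstm5, Gstm7, Gstm6, Gstm3 and Gstm2, followed by Gstm1 and Gstm4, which were not called.

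Upstream sequences are shown for 3 of the mu genes that changed and for Sult1d1, the member with the largest decrease. They were chosen after the values of these genes were seen. They come from RefSeq (GRCm38.p6) and run 5′ to 3′ on the transcribed strand, ending 1 base before the outermost annotated start of the gene. Capitals mark matches, on either strand, to TGACNNNGC, the core of the antioxidant response element read by NFE2L2, or to GCGTG, the core read by the aryl hydrocarbon receptor.
Gstm5, chr3:107895604-107895820, plus strand: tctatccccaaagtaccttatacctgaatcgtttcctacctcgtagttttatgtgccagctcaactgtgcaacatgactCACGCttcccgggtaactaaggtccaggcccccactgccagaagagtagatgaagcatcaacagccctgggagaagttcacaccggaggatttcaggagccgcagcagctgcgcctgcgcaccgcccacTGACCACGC
Gstm2, chr3:107986454-107986670, minus strand: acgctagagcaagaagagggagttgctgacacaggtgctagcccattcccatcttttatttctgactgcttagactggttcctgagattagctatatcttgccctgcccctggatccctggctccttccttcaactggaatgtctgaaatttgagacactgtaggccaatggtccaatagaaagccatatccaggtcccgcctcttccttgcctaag
Gstm3, chr3:107969284-107969424, minus strand: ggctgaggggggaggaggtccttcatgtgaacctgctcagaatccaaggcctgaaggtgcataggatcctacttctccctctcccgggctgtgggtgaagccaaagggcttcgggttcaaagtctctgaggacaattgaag
Sult1d1, chr5:87569028-87569256, minus strand: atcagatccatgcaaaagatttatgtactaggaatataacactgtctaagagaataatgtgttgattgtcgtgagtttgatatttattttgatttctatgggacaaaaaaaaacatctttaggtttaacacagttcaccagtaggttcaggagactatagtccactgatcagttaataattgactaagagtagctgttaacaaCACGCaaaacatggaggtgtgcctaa
Gstm5 held TGACNNNGC at -42 from its RefSeq start, where it overlaps a GCGTG match at -38, and another GCGTG at -171. Sult1d1 held GCGTG at -47, and the Gstm2 and Gstm3 windows held neither motif. Over the 250 bases before each start, TGACNNNGC occurred in 4 of the 41 member genes with a RefSeq window and in 10.2% of all 32851 windows, and GCGTG in 10 of 41 genes against 28.2% of windows. Of the 13 members with a window that fell, 2 held TGACNNNGC and 3 held GCGTG, and of the 3 that rose 1 held each. The HNF4 site CAAAGTCCA was in 0 of 41 member genes and 0.384% of windows, and TATAAA in 4 of 41 and 12.4%. The 41 genes had 52 windows, and a gene counted when any of its windows matched. Counts of genes and percentages of windows are therefore not in the same unit. A match of letters is a description and not a bound site.

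Gstm5 varied little between mice of a group, at 11.4, 13.8 and 11.4 CPM in control and 30.0, 30.0 and 37.7 CPM in deleted mice. All deleted mice lay well above every control (log2 fold change 1.41, standard error 0.17, edgeR adjusted p = 0.000261). An exon of the noncoding gene 4933431E20Rik overlaps it on the other strand, and that gene fell (log2 fold change -1.05, edgeR adjusted p = 0.0213). Whether the counting used strand is not given in the sources used here.

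Gstm2 showed the steepest fall of the class, from 31.4, 50.3 and 52.1 CPM to 2.29, 3.13 and 3.66 CPM. Its groups were far apart (log2 fold change -3.88, standard error 0.27, edgeR adjusted p = 1.85e-05). Gstm6 fell from 63.2, 125 and 89.7 CPM to 21.3, 26.01 and 32.9 CPM, and Gstm7 from 24.5, 54.6 and 36.2 CPM to 10.9, 11.7 and 14.1 CPM, at log2 fold changes of -1.79 and -1.65.

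For Gstm3, Gstm1 and Gstm4 the call depended on which mice were used. Gstm3 stood at 158, 921 and 651 CPM in C1, C3 and C3-3 and at 128, 97.7 and 147 CPM in H1, H5 and H9. C1 lay just above the highest deleted mouse, while C3 and C3-3 were several times higher. Its log2 fold change was -2.22 (standard error 0.61, edgeR adjusted p = 0.0292), and the adjusted p was 0.0847 without C3, 0.0717 without C3-3, 0.0934 without H1, 0.0892 without H5 and 0.0787 without H9. Gstm1 stood at 86.4, 459 and 310 CPM against 168, 202 and 195 CPM, and Gstm4 at 14.7, 71.1 and 39.6 against 15.8, 19.9 and 21.4 CPM. Neither was called by edgeR with all mice, and C1 lay below every deleted mouse in both. Both passed as lower when C1 was left out (log2 fold changes -1.03 and -1.53, edgeR adjusted p = 0.00374 and 0.00199). With all mice, Gstm4 passed as lower in DESeq2's Wald test (log2 fold change -1.12, adjusted p = 0.0244). C1 was also the control mouse with the lowest summed T cell markers and the highest fibroblast and muscle markers; the part of these cells was not tested.

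As shares of the summed mu family, Gstm3 was 49.8% in control and 30.5% in deleted IEC, Gstm1 25.1% and 46.4%, and Gstm5 1.57% and 7.997%. Gstm1 therefore led the family in every deleted mouse and Gstm3 in every control mouse, on the CPM scale, which does not correct for gene length. The mu genes are close paralogs, and reads that fit several of them could have been assigned to one or lost.

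**Figure D4:**
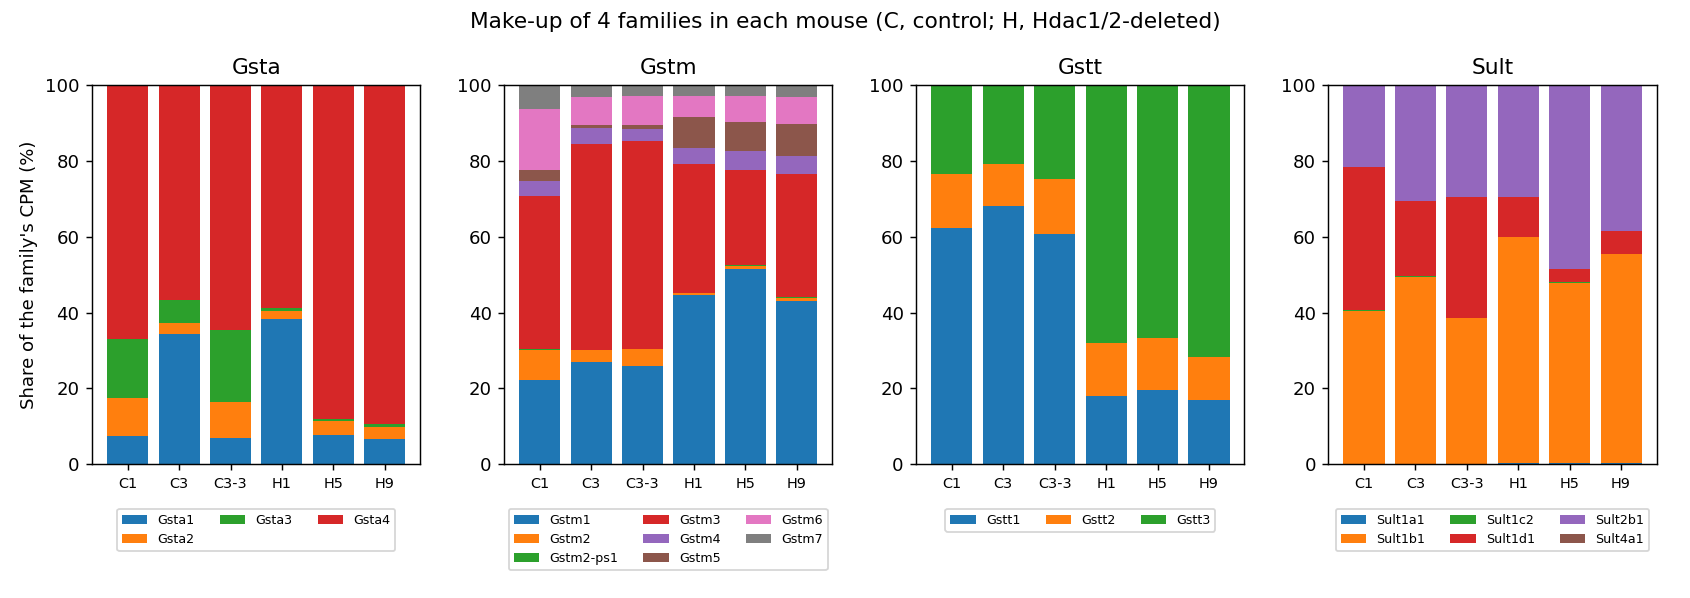
Share of each gene in the summed CPM of the Gsta, Gstm, Gstt and Sult families, in percent, as stacked bars for each mouse. In the theta family Gstt1 leads in the control mice and Gstt3 in the deleted mice, and in the mu family Gstm3 leads in control and Gstm1 in deleted mice.

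The theta family exchanged its leading gene. Gstt1, which acts on small halogenated compounds, stood at 128, 233 and 141 CPM in control and at 20.9, 27.0 and 22.8 CPM in deleted mice, with a log2 fold change of -2.83 (standard error 0.25, edgeR adjusted p = 5.91e-05). Its neighbour Gstt3 was at 48.2, 71.4 and 57.2 CPM against 78.4, 91.8 and 96.9 CPM, separate but under the 2-fold limit (log2 fold change 0.60, edgeR adjusted p = 0.0211). Gstt1 was 63.8% of the family in control and 18.2% in deleted IEC, Gstt3 23.0% and 68.8%. These shares are on the CPM scale, which does not correct for gene length. As mean CPM per kilobase of annotated exon, Gstt1 was at 109 and Gstt3 at 15.3 in control. In deleted IEC they were closer, at 15.4 and 23.2. The length counts the exons of all annotated transcripts, 1528 bases for Gstt1 and 3842 for Gstt3, so this scale depends on the annotation. Gstt2 went from 29.6, 36.9 and 33.5 CPM to 15.9, 18.8 and 15.3 CPM at a log2 fold change of -1.001, on the 2-fold limit itself, and fell short of that limit in 10 of 14 other analyses while its adjusted p stayed at most 0.00671.

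Pi, omega and zeta classes had no call. Gstp1, the main pi-class enzyme, was at 336, 441 and 425 CPM in control and 534, 720 and 851 CPM in deleted mice, all higher but below 2-fold (log2 fold change 0.81, edgeR adjusted p = 0.0121). Gstp2 lay at 7.28 to 30.4 CPM with overlapping groups. The omega-class reductase Gsto1 was at 789, 987 and 815 CPM against 811, 1047 and 1072 CPM, overlapping, and Gsto2 stayed at or below 0.293 CPM. Gstz1, which isomerizes maleylacetoacetate in tyrosine breakdown, had a log2 fold change of -0.63 under the 2-fold limit (edgeR adjusted p = 0.00803).

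Gstk1, a mitochondrial and peroxisomal enzyme of another fold, fell from 89.2, 164 and 97.4 CPM in the control mice to 11.4, 11.1 and 15.7 CPM in the deleted mice. The deleted mice differed little from each other and C3 was highest (log2 fold change -3.20, standard error 0.27, edgeR adjusted p = 5.94e-05). By contrast the 3 microsomal transferases were not called. Mgst1 stood at 261, 120 and 239 CPM against 260, 265 and 290 CPM, Mgst2 at 128, 160 and 164 against 148, 139 and 188 CPM, and Mgst3 at 309, 386 and 360 against 279, 314 and 298 CPM. The class sum overlapped between the groups, at a ratio of means of 1.02.

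Levels can be set between genes only per length, here as mean CPM per kilobase of annotated exon, and not for Ugt1a. That length counts the exons of all annotated transcripts of a gene, so the order of genes depends on the annotation. On that scale the leading members in control were Gstm3 at 440, Gsto1 at 427, Mgst3 at 321 and Gstp1 at 259, followed by Gstm1 at 194, Ugt2b34 at 174 and Sult1b1 at 146. The first place of Gstm3 rests on C3 and C3-3, at 921 and 651 CPM against 158 CPM in C1. In Hdac1/2-deleted IEC the leading members were Gsto1 at 483, Gstp1 at 453, Gsta4 at 320 and Mgst3 at 271. They were followed by Ugt2b34 at 140, Mgst1 at 135, Gstm1 at 128, Gsta1 at 104 and Gstm3 at 94.7. The place of Gsta1 rests on H1, at 228 CPM against 39.3 and 31.8 CPM in H5 and H9. Gsta4 stood at 59.7 on this scale in control.

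UGT and sulfotransferase genes also share a locus. On chromosome 5, Ugt2b34, Ugt2b1, Ugt2b35, Ugt2b36, Ugt2b5, Ugt2a3, Ugt2b38, Sult1b1 and Sult1d1 follow each other between 86889767 and 87569027. The first 5 of these hold the members that rose there, Ugt2b1 and Ugt2b36, and the last 4 hold those that fell, Ugt2a3, Sult1b1 and Sult1d1. No test was made of this order.

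**Figure D5:**
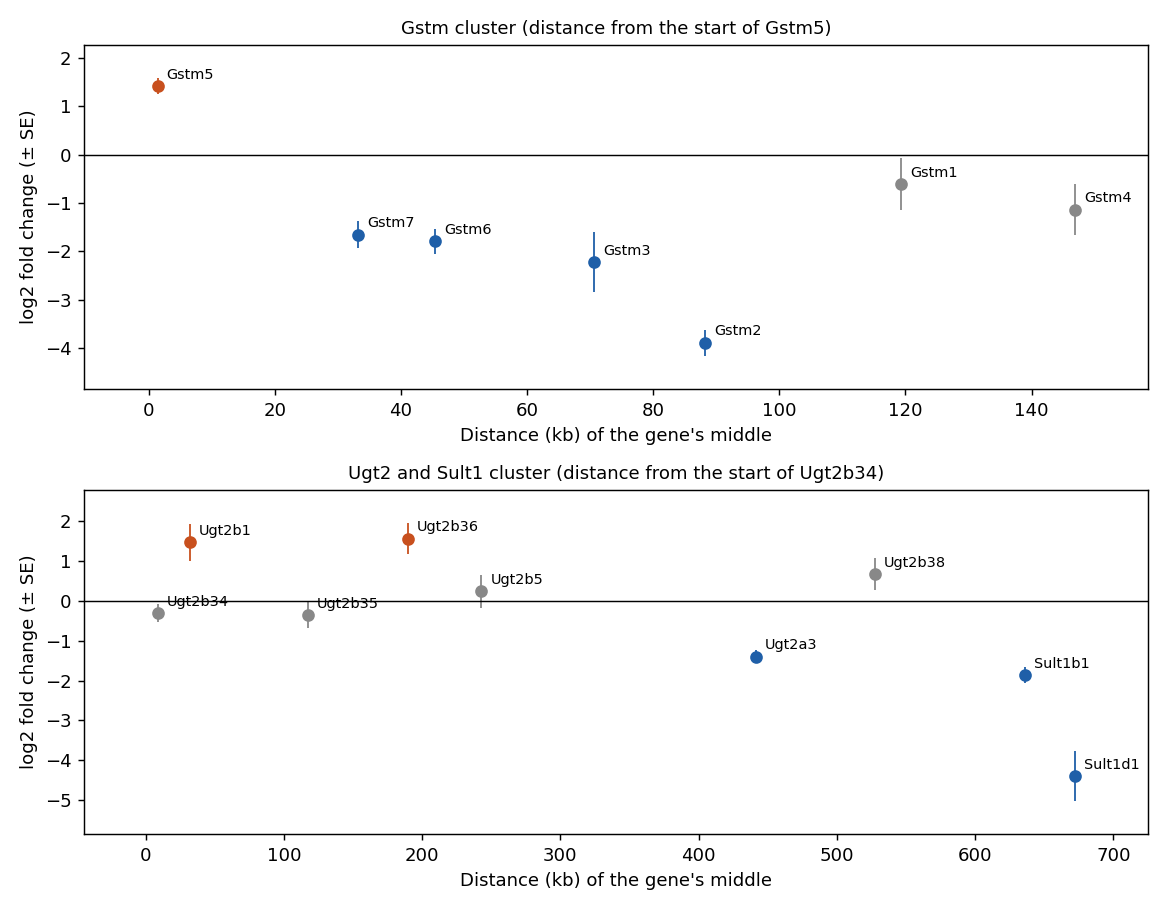
Log2 fold change, Hdac1/2-deleted over control, with bars of 1 standard error, of the genes of 2 clusters against the distance of the middle of each gene, in kb, from the start of the first (orange rose, blue fell, grey not called). In the chromosome 3 mu cluster Gstm5 at 1.41 stands opposite its neighbours, and on chromosome 5 the decreases lie at the Sult1d1 end.

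Genes that supply, export or remove conjugates moved in both directions. The lists of these were chosen with earlier results of these data known, and their counts are read against 12.4% of all genes higher and 12.7% lower. Of 6 genes that make UDP-glucuronate and carry UDP-sugars into the endoplasmic reticulum or Golgi, 0 rose and 1 fell, the nucleotide sugar transporter Slc35d2 (17.97 ± 4.99 to 3.42 ± 0.43 CPM, SD, n = 3). Ugdh, which makes UDP-glucuronate, was at 483 ± 109 and 490 ± 58.6 CPM. Of 12 genes of sulfate uptake and activation, 3 rose and 1 fell. Papss1, a PAPS synthase, rose from 102 ± 19.4 to 250 ± 36.8 CPM (log2 fold change 1.30, edgeR adjusted p = 0.000722), while 4 of the 5 tested sulfotransferases, which use PAPS, fell. Papss2, the more abundant PAPS synthase, was at 884 ± 262 against 1628 ± 269 CPM. It was higher in every deleted mouse than in any control but under the 2-fold limit (log2 fold change 0.88, edgeR adjusted p = 0.0189). The other calls were the transporters Slc26a1, Slc13a4 and Slc26a3. Slc26a1 and Slc13a4 rose from means near the floor of 0.069 and 0.078 CPM, and Slc26a3 fell (log2 fold change -1.32).

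Of 19 tested genes of glutathione synthesis and turnover, 3 rose and 6 fell. Gsr, glutathione reductase, rose from 75.2 ± 6.87 to 244 ± 28.1 CPM (log2 fold change 1.70, edgeR adjusted p = 5.71e-05), and Cbs and Slc1a4 also rose, to means of 1.15 and 6.62 CPM. Gclm, the modifier subunit of the rate-limiting enzyme of glutathione synthesis, fell from 230 ± 30.7 to 92.8 ± 12.5 CPM. The other decreases were Ggt1, Ggt6, Ggct, Chac2 and Oplah, all of glutathione breakdown, at log2 fold changes from -2.07 to -1.07. The catalytic subunit Gclc had a log2 fold change of -0.78, under the 2-fold limit.

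Of 8 exporters, 2 rose and 1 fell. Abcc6 fell from 70.3 ± 8.89 to 2.82 ± 0.36 CPM (log2 fold change -4.63, edgeR adjusted p = 1.94e-06), while Abcc4 and Abcc5 rose at log2 fold changes of 1.43 and 1.41. The main apical conjugate pumps Abcc2 and Abcg2 were not called, at 188 ± 71.8 against 182 ± 87.3 CPM and 155 ± 33.5 against 162 ± 32.4 CPM. Of 9 tested genes listed for the removal of conjugates, 2 rose and 2 fell. Gusb, the lysosomal beta-glucuronidase, rose from 18.7 ± 3.79 to 61.8 ± 9.87 CPM and Arsa from 33.8 ± 4.91 to 113 ± 32.3 CPM, while Arsb and Ccbl2 fell at log2 fold changes of -2.14 and -3.49. Whether the arylsulfatases Arsa and Arsb act on products of the sulfotransferases was not tested.

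Among 24 tested genes of other conjugating and related enzymes, 4 rose and 7 fell. Gnmt, glycine N-methyltransferase, rose from 0.159 ± 0.061 to 3.56 ± 0.54 CPM, and the GST-fold genes Clic4, Hpgds and Vars rose at log2 fold changes of 2.78, 2.22 and 1.24. Ltc4s, leukotriene C4 synthase and a relative of the microsomal transferases, fell from 14.4 ± 4.93 to 0.269 ± 0.096 CPM, and its relative Alox5ap fell by 1.99 on the log2 scale. The epoxide hydrolases Ephx1 and Ephx2 had log2 fold changes of -3.49 and -1.93. Nqo1, Tpmt and Baat fell as well, at -1.94, -1.45 and -1.34. Of 22 regulators, 2 rose, Maff and Foxa3, and 2 fell, among them Nr1i3 (65.4 ± 7.49 to 26.2 ± 5.03 CPM), which encodes the xenobiotic receptor CAR. Ahr at 13.5 ± 2.29 against 12.9 ± 1.40 CPM and Nfe2l2 at 330 ± 59.8 against 246 ± 26.1 CPM were not called.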

How the data were processed

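The authors sequenced poly(A) RNA of jejunal IEC from 6 mice on a paired-end Illumina instrument and aligned the reads with STAR 2.4.0f1. Their methods name GRCm38 and the processing notes mm9, while the read counter, annotation and use of strand are not given in the sources used here. The deposited table holds raw counts per gene, which were used. It also holds 6 columns of counts scaled by the authors with 1 factor per sample and the authors' own log2 fold changes, mean CPM and p-values, which were not used. Every gene in it has at least 10 counts over the samples.

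Counts were analysed with edgeR 4.0.16 in R 4.3.3: filterByExpr kept 15618 genes, which were scaled with TMM and fitted with the robust quasi-likelihood model, a prior count of 0.125 and no covariates. P-values were adjusted by Benjamini-Hochberg over all of them. The standard error is the size of the log2 fold change divided by the square root of the F statistic. A call needed an adjusted p no higher than 0.05 together with a 2-fold difference. The 3 mice of a group are separate animals. An exact permutation test of 3 against 3 was not used. Alternatives used DESeq2 1.42.0 and limma 3.58.1, other normalizations, filters and prior counts, no fold limit, and each mouse left out. Replicate names do not pair the mice. The steps were tested on simulated data.

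Members, lists and named genes were chosen with earlier results of these data known. Named were all called members, the 3 most abundant of each class, those whose call changed when a mouse was left out, untested members and called genes of 7 pathway lists, with a few uncalled pathway genes added after their values were seen. The values of 1 called pathway gene are not reported here. Positions and exon overlaps came from GENCODE M21 (GRCm38), which held all 46 members, and upstream windows of 250 bases from RefSeq, which had none for 5 members. Cell type lists were read as summed CPM. Plots were made with matplotlib 3.10.9 in Python 3.11.15.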

Additional observations from a re-analysis of the deposited data

How the results depend on the processing

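Of 583 combinations of a tested member and an alternative, 541 kept direction and call, 25 kept the direction and lost the call, 11 kept it and gained one, and 6 turned direction. The 6 belong to 4 members, not called with or without the mouse, and with 1 mouse left out their log2 fold changes ranged from -0.0699 (without H9) to 0.66 for Gsto2, -0.067 (without H9) to 0.16 for Mgst2, -0.64 to 0.058 (without H9) for Ugt1a8 and -0.067 (without C1) to 0.52 for Ugt2b5. Gsto2 was also at -0.041 without C3-3 and Mgst2 at -0.0295 without C1. Without a fold limit, 8 members rose, against 5, and over all genes 3198 rose and 3168 fell, against 1944 and 1990. With library totals only, the median of all genes moved to 0.18, that of the members from -0.51 to -0.32, and the log2 ratios of the class sums of Ugt1a and Mgst from -1.16 and 0.035 to -0.97 and 0.22. With 1 mouse left out, 3 to 5 members rose and 12 to 17 fell, 1841 to 2109 of all genes rose and 1790 to 2012 fell, and the members' median ranged from -0.68 without C1 to -0.17 without C3. It was 3 members that rose without C3 and 3 without H9. The log2 ratio of the class sums, mouse by mouse left out, ranged from -2.39 to -2.09 for Sult, -1.24 to -1.09 for Ugt1a, -0.49 to -0.17 for Ugt2, -0.24 to 0.25 for cytosolic GST and -0.014 to 0.091 for Mgst. Counting error limits the rarest members, such as Ugt2b1 with 5 to 31 counts per mouse. No paired analysis was made because neither the labels nor the replicate names pair the mice.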

Other observations

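Markers of the secretory cells in these libraries also differed between the groups. Their counts are read against the 12.7% of all genes tested that fell and the 12.4% that rose. Of 9 Paneth cell markers 8 fell, with sums of 3341 to 5325 CPM in control and 182 to 284 CPM in Hdac1/2-deleted mice. Of 8 goblet cell markers 3 fell and 0 rose, at a ratio of summed means of 0.501, and of 7 tested tuft cell markers 6 fell and 1 rose. Of 9 enteroendocrine markers 2 rose and 2 fell. Their sums were 650 to 722 CPM in control and 1091 to 1494 CPM in deleted mice, a difference carried by Sct (mean 42.6 against 718 CPM), while Gip and Gcg fell and Chga was at 126 against 128 CPM. Of 9 crypt and proliferation markers 2 fell and 0 rose, at a ratio of summed means of 0.689, where the sum holds Olfm4 at a mean of 273 against 91.4 CPM and Mki67 at 88.4 against 113 CPM. Hepatocyte markers, of which 7 were tested, had 3 higher and 3 lower at a ratio of sums of 1.05. That sum was nearly all Cps1 (mean 622 against 625 CPM), which was not called, so it does not show the rarer markers. Ttr (mean 1.56 against 26.3 CPM), Tat and Serpina1a rose, and Hpd (5.10 against 1.88 CPM), Alb and Cyp2e1 fell. Of 9 T cell markers 2 fell, of 8 myeloid markers 3 rose and 1 fell, of 4 tested B and plasma cell markers 1 rose, of 7 tested fibroblast and muscle markers 4 fell, and of 3 tested endothelial markers 0 changed. B and plasma cell markers summed to 62.6 CPM in C1 but to 9.31 and 6.25 CPM in C3 and C3-3, against 43.7 to 61.7 CPM in deleted mice.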
